A study of Mus musculus with 20 samples.

Results

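The genes described here are a set of 35 autophagy and lysosome genes of the mouse, 19 of the autophagy machinery and 16 of the lysosome, in fibroblasts sorted from the dermis. They were chosen by name, and each was read from the probe set that names that gene alone and had the highest mean over all arrays. Of the 35 genes, 32 were measured, 17 of autophagy and 15 of the lysosome, among 17097 genes in all. Sqstm1, Map1lc3b and Neu1 were not analysed here, because no probe set named them alone in the annotation used. RNA came from female mice in 4 groups with 5 arrays each, which the labels call biological replicates. The young group (Young ND), 4 weeks old, received normal diet (ND) without limit for 4 weeks. The labels do not settle whether the young mice were 4 weeks old when this feeding began or when they were killed. The 15 old mice, 9 months old at the start, were killed at 18 months. In the Old ND group normal diet was given for all 9 months. In the Old CR group 2 months of normal diet were followed by 7 months of 30% caloric restriction (CR). In the Old CR-ND group restriction came first, for 7 months, and 2 months of normal diet came last, so these mice were refed at collection. The labels give no strain and no genetic change. The sort kept cells with Pdgfra and CD34 and without CD45, CD117, CD24, CD31 and EpCam, after the subdermis had been removed, and RNA of 10000 cells was amplified over 20 cycles.

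Macroautophagy wraps a portion of cytoplasm in a growing double membrane and delivers it to the lysosome. The ULK1 kinase complex starts the process, the Beclin 1 lipid kinase complex marks the membrane with a phosphoinositide that WIPI proteins read, and ubiquitin-like conjugation enzymes attach LC3 and GABARAP proteins to the membrane lipid. In the lysosome, a proton pump acidifies the lumen, where cathepsins cut proteins and glycosidases trim glycolipids and glycogen, and the transcription factor TFEB is known to raise many of these genes when nutrients are short. Dermal fibroblasts use the same compartment to degrade collagen that they take up. An array reads mRNA levels and does not measure autophagic flux or enzyme activity.

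All levels are the deposited log2 array values, and all differences are on the log2 scale, each ± its limma standard error, from a fit to the 20 arrays with n = 5 per group. Each adjusted p is Benjamini-Hochberg adjusted over the 17097 genes, and a gene rose or fell where it was under 0.05. The precision is limited by how many arrays there are. Array medians lay between 5.27 and 5.34. Levels of different genes come from different probes and are not compared with each other. Of the 32 genes, 31 lay on average above each of the 23 nonspecific control probe sets, whose highest mean was 5.63, and Tfeb at 4.59 lay above their median of 3.45 but not above all of them. The sample titles carry numbers whose meaning the labels do not state. They fall into 2 separate stretches, which are treated here as 2 runs of arrays, an inference from the numbering alone: a first with 13 arrays (3 of Young ND, 3 of Old ND, 4 of Old CR and 3 of Old CR-ND) and a second with 7 arrays, only 1 of them Old CR. Arrays 1 to 3 of each group, and array 4 of Old CR, belong to the first run. With the groups held constant, 10 of the 32 genes differed between the runs, 2 higher and 8 lower in the second, beside 17.2% of all genes. The largest of these differences were -0.46 ± 0.07 for Ctsa and -0.45 ± 0.10 for Gaa, so values within each run are given for the genes of the set that rose or fell. In RNA from a pool of cells, fewer cells of a type and less RNA per cell cannot be told apart.

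The start regions of the genes show 1 feature that was not read from the arrays. The genes were picked by name, so the shares below describe this choice and not lysosome genes in general. The bases CACGTG, an E-box, form the core of the element that TFEB binds, and TCACGTGA is the E-box with its preferred flanks. Each motif was sought in the 250 bases before the RefSeq start sites (GRCm38.p6), and reads the same on both strands, so every long form also counts as an E-box. The E-box stood in 4 of the 12 autophagy genes with an entry (33.3%, Atg3, Atg5, Atg7 and Bnip3) and in 8 of the 13 lysosome genes with an entry (61.5%, Lamp1, Ctsa, Ctsd, Ctsl, Gaa, Gla, Glb1 and Mcoln1). The E-box stood in 6.86% of all 27025 genes of the table and in 8.75% of the measured genes with an entry. In the lists of other pathway genes, described further below, it stood in 17.9% of lysosomal enzymes and 26.3% of membrane and sorting proteins. It stood in 18.2% of proton pump subunits, 25.0% of regulators, 8.33% of autophagy receptors and 4.35% of autophagy machinery genes, each among genes with an entry. TCACGTGA stood in 1 of the 12 (Atg3) and 4 of the 13 (Ctsa, Ctsd, Gla and Mcoln1), beside 0.91% of all genes and 1.34% of the measured ones. In the other lists it stood in 0 of 28 lysosomal enzymes, 3 of 19 membrane and sorting proteins and 1 of 11 proton pump subunits. It stood in none of the other autophagy machinery, receptors or regulators. The FOXO element GTAAACA, sought on both strands, stood in none of these 25 genes, beside 3.54% of all genes, and a missing match says only that these letters were not in this window. Becn1, Atg12, Atg16l1, Map1lc3a, Bnip3l, Ctsb and Npc1 had no entry.

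The windows of 6 genes whose levels are described below are shown, 5 with the E-box and Wipi1 without, to let the spacing of the motifs be read. Each runs 5′ to 3′ on the strand of the gene and ends at the base before the start site, and capitals mark the E-box, with its flanks where these match. Gla lies at chrX:134601006-134601255 (minus strand), Atg7 at chr6:114670846-114671095 (plus strand), Bnip3 at chr7:138909507-138909756 (minus strand), Atg3 at chr16:45158579-45158828 (plus strand), Glb1 at chr9:114400828-114401077 (plus strand) and Wipi1 at chr11:109611390-109611639 (minus strand).
Gla: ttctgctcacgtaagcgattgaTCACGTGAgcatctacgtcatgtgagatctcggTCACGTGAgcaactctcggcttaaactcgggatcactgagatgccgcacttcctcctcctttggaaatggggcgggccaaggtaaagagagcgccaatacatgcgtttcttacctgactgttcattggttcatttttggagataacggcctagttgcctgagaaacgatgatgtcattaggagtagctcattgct
Atg7: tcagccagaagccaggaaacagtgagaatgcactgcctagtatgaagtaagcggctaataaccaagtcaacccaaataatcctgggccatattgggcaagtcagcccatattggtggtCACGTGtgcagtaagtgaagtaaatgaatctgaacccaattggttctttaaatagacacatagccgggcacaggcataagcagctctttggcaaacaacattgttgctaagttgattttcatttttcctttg
Bnip3: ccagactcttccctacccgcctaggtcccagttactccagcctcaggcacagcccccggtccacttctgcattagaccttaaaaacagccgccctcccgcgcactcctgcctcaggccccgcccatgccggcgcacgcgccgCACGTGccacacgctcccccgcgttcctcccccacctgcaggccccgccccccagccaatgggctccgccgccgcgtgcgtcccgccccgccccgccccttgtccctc
Atg3: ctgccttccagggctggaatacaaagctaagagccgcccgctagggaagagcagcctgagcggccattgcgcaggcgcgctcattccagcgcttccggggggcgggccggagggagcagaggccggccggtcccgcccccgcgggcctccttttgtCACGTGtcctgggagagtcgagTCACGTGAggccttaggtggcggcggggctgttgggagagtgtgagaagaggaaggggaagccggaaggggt
Glb1: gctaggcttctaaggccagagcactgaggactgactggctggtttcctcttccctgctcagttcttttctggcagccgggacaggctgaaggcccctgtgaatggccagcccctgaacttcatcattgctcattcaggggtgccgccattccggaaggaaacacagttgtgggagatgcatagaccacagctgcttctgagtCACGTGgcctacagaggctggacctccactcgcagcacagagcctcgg
Wipi1: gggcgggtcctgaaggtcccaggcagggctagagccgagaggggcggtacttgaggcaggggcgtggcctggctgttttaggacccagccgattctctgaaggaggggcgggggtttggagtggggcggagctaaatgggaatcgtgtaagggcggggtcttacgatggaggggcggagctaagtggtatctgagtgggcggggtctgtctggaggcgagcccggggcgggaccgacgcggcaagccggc
In Gla both matches are of the longer form, and they begin 228 and 195 bases before the start. In Atg3 a plain E-box begins 94 bases before the start and the longer form 72 bases before it. The E-box begins 132 bases before the start in Atg7, 108 in Bnip3 and 48 in Glb1. Lamp1, the major glycoprotein of the lysosome membrane, held 4 copies, which begin between 61 and 15 bases before its start. A match is a description of the sequence and no evidence of binding in these cells.

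Across the 4 groups the genes kept narrow ranges. The spread from the lowest to the highest array was under 1 log2 unit in 23 of the 32 genes, from 0.26 for the protease gene Ctsl to 1.5 for the mitophagy receptor gene Bnip3. By limma's moderated F test, 9 of the 32 genes differed among the groups (28.1%, beside 12.9% of all genes): Wipi1, Atg3, Atg7, Atg16l1, Gabarap and Bnip3 of autophagy, and Gla, Glb1 and Npc1 of the lysosome. Old ND had the highest group mean for 0 of the 32 genes and the lowest for 15 (46.9%), where over all genes it had the highest for 23.7% and the lowest for 25.1%. Young ND had the highest mean for 15 genes (46.9%, beside 31.7% of all genes), Old CR for 13 (40.6%, beside 27.2%) and Old CR-ND for 4 (12.5%, beside 17.4%). The counts were not repeated with another scaling of the arrays. Only group means enter these counts, and many neighbours in the order did not differ beyond their spread. The map of the genes over the arrays shows the sparse pattern.

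**Figure D1:**
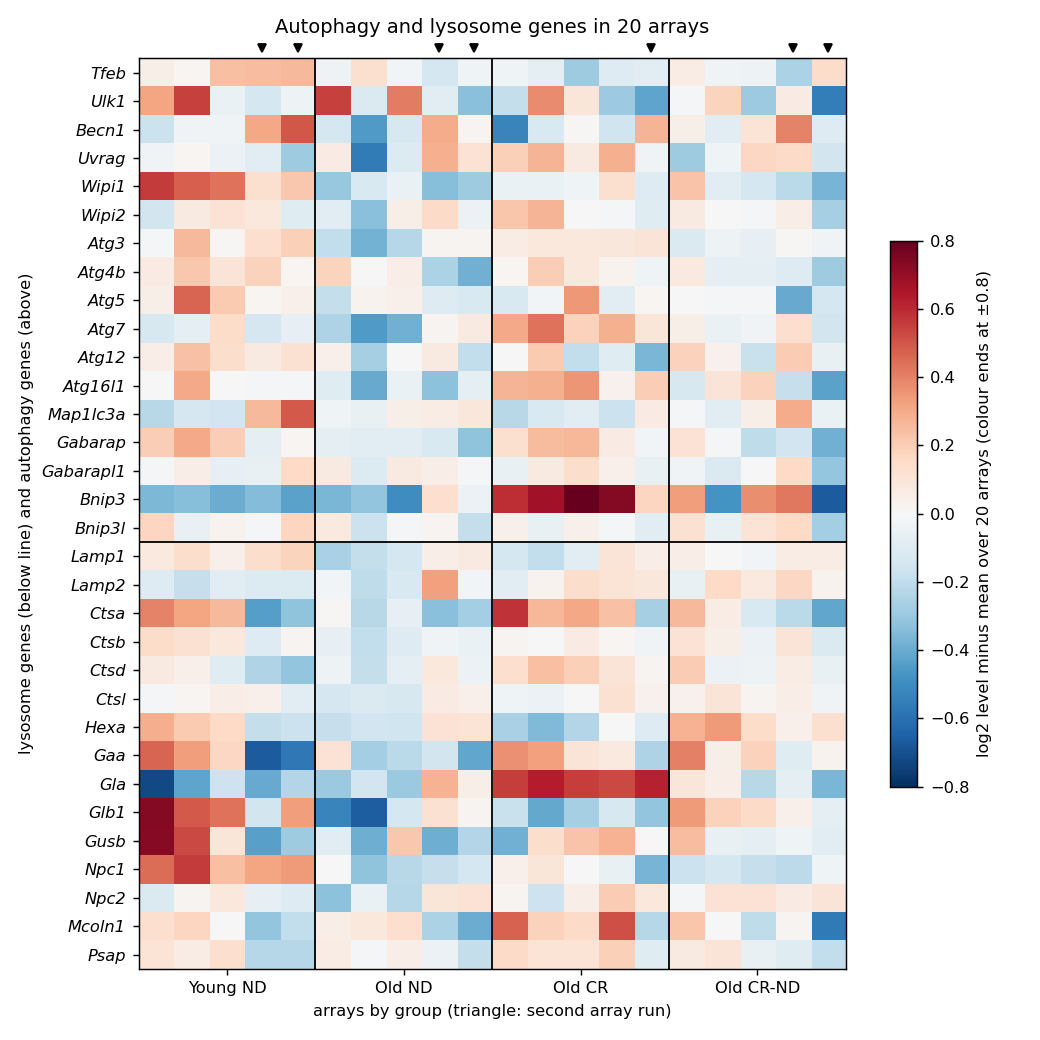
Heat map of the 32 autophagy and lysosome genes (rows) in the 20 arrays (columns, 5 per group), coloured by the log2 level minus that gene's mean over the 20 arrays, with colour ending at ±0.8. Triangles mark the arrays of the second run. Gla and Bnip3 are highest in the Old CR columns, Wipi1 and Npc1 are highest in Young ND, and Ctsa and Gaa are low in the Young ND arrays of the second run.

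The first comparison asked how the genes differed between old and young mice on the normal diet. In Old ND, 4 of the 32 genes fell and 0 rose: Wipi1 and Atg3 of autophagy, and Glb1 and Npc1 of the lysosome. They are 12.5% of the genes, where 10.9% of all genes were called in this comparison and 6.49% were called lower. The falls ran from 1.21-fold to 1.52-fold. The median difference of the 32 genes was -0.14, beside 0.00 over all genes, and 6 of the 32 were above 0. That median was -0.19 among first-run arrays, -0.03 among second-run arrays and -0.05 after a further quantile normalization, so its size moved with the arrays and the scaling.

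Wipi1 encodes a protein that binds the phosphoinositide on the forming autophagosome. Its level in Young ND was 8.92, 8.84, 8.80, 8.49 and 8.58, and in Old ND it was 8.06, 8.24, 8.31, 8.02 and 8.08. Each Old ND array lay below each Young ND array, by at least 0.18. Old CR arrays read 8.31, 8.31, 8.33, 8.49 and 8.26, and Old CR-ND arrays 8.59, 8.28, 8.22, 8.15 and 7.99. These groups overlapped each other and Old ND, and the highest array of each reached the lowest Young ND array. Wipi1 fell by 0.58 ± 0.10 in Old ND against Young ND (limma, adjusted p = 0.00046), by 0.39 ± 0.10 in Old CR (adjusted p = 0.0128) and by 0.48 ± 0.10 in Old CR-ND (adjusted p = 0.00426). These 3 comparisons share the Young ND arrays. All 6 probe sets of Wipi1 were lower in Old ND and all 6 passed the threshold, with differences from -0.91 to -0.42. Among first-run arrays Wipi1 differed by -0.65, and among second-run arrays by -0.49. The corresponding values were -0.49 and -0.28 in Old CR, where it did not pass among second-run arrays (adjusted p = 0.494), and -0.49 and -0.47 in Old CR-ND (second run, adjusted p = 0.0766). Its paralogue Wipi2, which recruits the conjugation machinery to the membrane, differed by -0.06 ± 0.10 (adjusted p = 0.783).

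Npc1 encodes the membrane protein that exports cholesterol from the lysosome. Young ND arrays read 8.52, 8.63, 8.31, 8.39 and 8.41, and Old ND arrays 8.07, 7.75, 7.85, 7.89 and 7.93. The groups did not overlap, with a gap of 0.24. Old CR arrays read 8.11, 8.17, 8.07, 8.01 and 7.70 and Old CR-ND arrays 7.90, 7.93, 7.89, 7.86 and 8.04, so that each of the 15 old arrays lay below the lowest young array. Npc1 fell by 0.55 ± 0.08 in Old ND (limma, adjusted p = 0.000129), by 0.44 ± 0.08 in Old CR (adjusted p = 0.00124) and by 0.53 ± 0.08 in Old CR-ND (adjusted p = 0.000404), each against Young ND. The difference in Old ND was -0.60 among first-run arrays and -0.49 among second-run arrays, in Old CR -0.40 and -0.70, and in Old CR-ND -0.58 and -0.45 (second run, adjusted p = 0.0854). Npc2, the soluble partner that hands cholesterol to NPC1, differed by -0.04 ± 0.08 (adjusted p = 0.825) in Old ND.

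Glb1 encodes the lysosomal beta-galactosidase whose activity is the stain commonly used for senescent cells. Young ND arrays read 7.30, 7.06, 7.00, 6.42 and 6.90, and Old ND arrays 6.04, 5.91, 6.43, 6.69 and 6.59. The groups overlapped, because the second-run arrays of Young ND were low and those of Old ND high. Glb1 fell by 0.60 ± 0.15 in Old ND (limma, adjusted p = 0.0102), with a difference of -0.99 among first-run arrays and -0.02 among second-run arrays. The difference between the runs was 0.97 ± 0.22 (limma, adjusted p = 0.15 over all genes, unadjusted p = 0.000334). Levels in Old CR were 6.39, 6.16, 6.30, 6.44 and 6.25, and in Old CR-ND 6.91, 6.75, 6.72, 6.61 and 6.49. Glb1 fell by 0.63 ± 0.15 in Old CR against Young ND (adjusted p = 0.00684), and in Old CR-ND the difference was -0.24 ± 0.15 (adjusted p = 0.427). Each Old CR-ND array lay above each Old CR array, by at least 0.05, but their difference of 0.39 ± 0.15 did not pass the threshold (adjusted p = 0.357).

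Atg3 encodes the conjugating enzyme that transfers LC3 to membrane lipid. Young ND arrays read 9.45, 9.72, 9.47, 9.59 and 9.65, and Old ND arrays 9.26, 9.08, 9.23, 9.48 and 9.48. The 2 second-run arrays of Old ND reached into the Young ND range. Atg3 fell by 0.27 ± 0.07 (limma, adjusted p = 0.019), with -0.36 among first-run and -0.14 among second-run arrays, and the call was lost when any of Young ND array 2, Young ND array 5 or Old ND array 2 was left out. Old CR arrays read 9.52, 9.54, 9.54, 9.55 and 9.56, all above each Old ND array, and Old CR-ND arrays read 9.34, 9.42, 9.39, 9.47 and 9.43. Old CR differed from Old ND by 0.24 ± 0.07 (adjusted p = 0.1), and with the run as a block by 0.26 (adjusted p = 0.0285).

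Next to the threshold lay Gabarap, a ubiquitin-like protein of the LC3 family, at -0.27 ± 0.09 (adjusted p = 0.073) and Lamp1 at -0.21 ± 0.07 (adjusted p = 0.0652). Gabarap arrays spanned 11.16 to 11.54 in Young ND and 10.91 to 11.16 in Old ND, and Lamp1 arrays 11.17 to 11.31 and 10.87 to 11.20. Both passed with the run as a block, Gabarap at an adjusted p of 0.0119 and Lamp1 at 0.0243. The initiation kinase gene Ulk1 differed by -0.04 ± 0.19, Becn1 by -0.20 ± 0.15 and its partner Uvrag by 0.05 ± 0.12, and none of them passed in any of the 6 comparisons. Of the cathepsins, Ctsb differed by -0.14 ± 0.06, Ctsd by 0.05 ± 0.08 and Ctsl by -0.06 ± 0.06, again without passing.

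**Figure D2:**
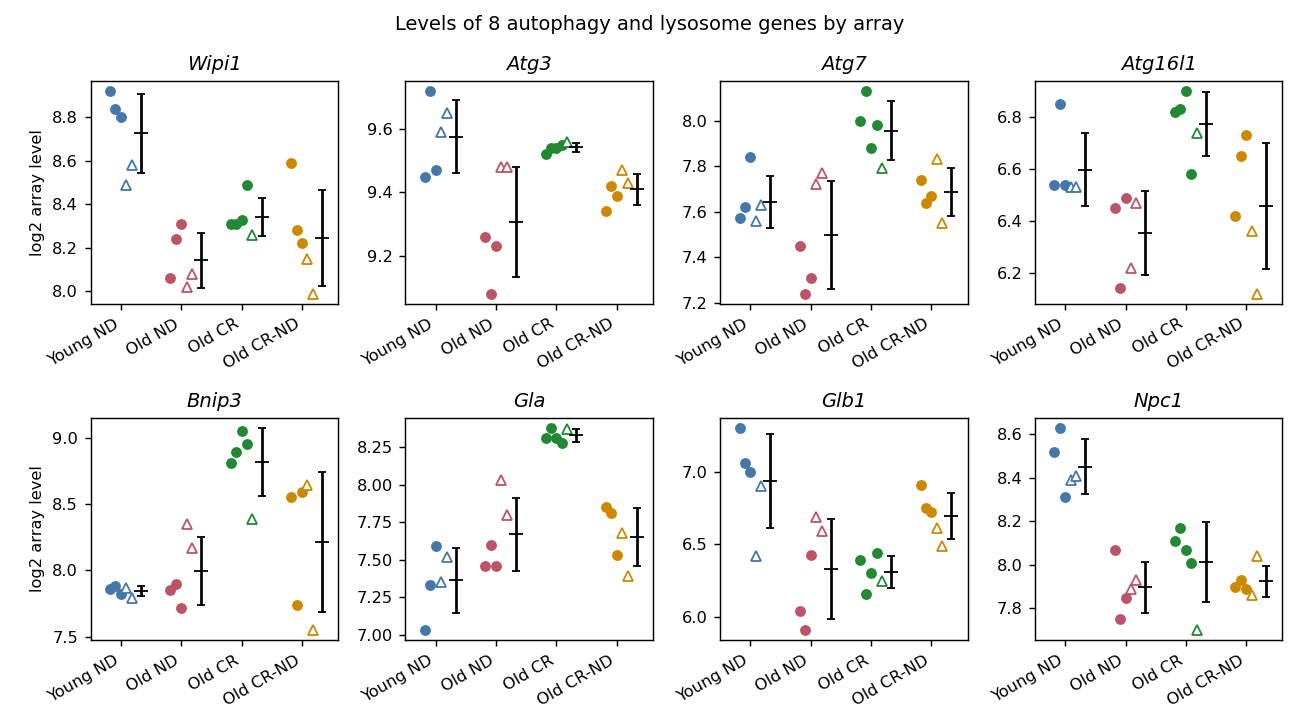
Log2 array levels of 8 genes in the 4 groups, each point 1 array (filled circles first run, open triangles second run), with the mean ± SD over 5 arrays beside the points. Wipi1 and Npc1 are lower in Old ND than in every Young ND array, and Gla in Old CR lies between 8.28 and 8.38, above every array of the other groups.

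The second comparison asked how restricted old mice differed from old mice on the normal diet. In Old CR, 4 of the 32 genes rose and 0 fell against Old ND: Atg7, Atg16l1 and Bnip3 of autophagy, and Gla of the lysosome. They are 12.5% of the genes, where 2.39% of all genes were called and 1.57% were called higher. The rises ran from 1.34-fold to 1.77-fold. The median difference of the 32 genes was 0.12, beside 0.00 over all genes, and 25 of the 32 were above 0. That median was 0.08 after a further quantile normalization and 0.01 among second-run arrays. None of the 4 genes was among those that had fallen in Old ND against Young ND. With 4 of 32 genes called in each comparison, that is a likely outcome by chance and no result about these genes. Atg3, which had fallen, passed as higher here with the run as a block (0.26, limma, adjusted p = 0.0285). The count of 4 was 5 among first-run arrays. Second-run arrays include only 1 of Old CR, so no count is given for them. Leaving out 1 array at a time gave 1 to 5 genes, with 2 without Old ND array 1, 1 without Old CR array 2 and 2 without Old CR array 3.

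Gla encodes alpha-galactosidase A, the glycosidase that trims globosides and is lacking in Fabry disease. Old CR arrays read 8.31, 8.38, 8.31, 8.28 and 8.37, a mean of 8.33 ± 0.04 (SD, n = 5). Old ND arrays read 7.46, 7.60, 7.46, 8.03 and 7.80, Young ND arrays 7.03, 7.33, 7.59, 7.35 and 7.52, and Old CR-ND arrays 7.85, 7.81, 7.53, 7.68 and 7.39. Each Old CR array lay above every array of the other groups, and the gap to Old ND was 0.25. Gla rose by 0.66 ± 0.12 in Old CR against Old ND (limma, adjusted p = 0.00466), with 0.81 among first-run and 0.46 among second-run arrays. Against Young ND it rose by 0.97 ± 0.12 (adjusted p = 8.75e-06), and Old ND differed from Young ND by 0.31 ± 0.12 (adjusted p = 0.0992). Its other, dimmer probe set differed by 0.37 ± 0.20 between Old CR and Old ND (adjusted p = 0.426 among all probe sets), and the mean of both probe sets by 0.52 (adjusted p = 0.0542), which ended the call. It did not end when any single array was left out, but it did not pass among second-run arrays alone.

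Bnip3 encodes a receptor on the outer mitochondrial membrane that tethers mitochondria to LC3. In Old CR the arrays read 8.81, 8.89, 9.05, 8.95 and 8.39 and Old ND arrays 7.85, 7.90, 7.72, 8.35 and 8.17. The groups did not overlap, but only by 0.04, which separates the second-run Old CR array from a second-run Old ND array. Bnip3 rose by 0.82 ± 0.18 against Old ND (limma, adjusted p = 0.0213), with 1.10 among first-run and 0.13 among second-run arrays. The run difference of -0.97 ± 0.39 did not pass over all genes (adjusted p = 0.983, unadjusted p = 0.0219), and 5 of 10 fits that left out 1 array lost the call (Old CR arrays 2, 3 and 4, Old ND arrays 1 and 3; adjusted p up to 0.062). Young ND arrays were tight, at 7.86, 7.88, 7.82, 7.87 and 7.79, and Old CR stood 0.97 ± 0.18 above them (adjusted p = 0.00111). Old CR-ND arrays read 8.55, 7.74, 8.59, 8.64 and 7.55, so that 3 lay near the Old CR arrays and 2 near Young ND, in both runs. The paralogue Bnip3l, also a mitophagy receptor, differed by 0.04 ± 0.08 (adjusted p = 0.895).

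Atg7 encodes the activating enzyme at the head of both conjugation systems. Levels in Old CR were 8.00, 8.13, 7.88, 7.98 and 7.79, and Old ND arrays 7.45, 7.24, 7.31, 7.72 and 7.77. The gap between the groups was 0.02. Atg7 rose by 0.46 ± 0.10 (limma, adjusted p = 0.0156), with 0.66 among first-run and 0.05 among second-run arrays, and a run difference of -0.62 ± 0.17 (adjusted p = 0.94, unadjusted p = 0.00213). Without Old CR array 2 the call was lost (adjusted p = 0.051). Young ND arrays read 7.57, 7.62, 7.84, 7.56 and 7.63 and Old CR-ND arrays 7.74, 7.64, 7.67, 7.83 and 7.55, both within the Old ND range except the highest array of each. The other 3 probe sets of Atg7 differed by 0.16, 0.16 and 0.03 between Old CR and Old ND, and none passed. The mean of its probe sets differed by 0.20 (adjusted p = 0.0345), which kept the call at a smaller size.

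Atg16l1 encodes the scaffold that, with the ATG5 and ATG12 conjugate, places LC3 on the membrane. In Old CR the arrays read 6.82, 6.83, 6.90, 6.58 and 6.74, and Old ND arrays 6.45, 6.14, 6.49, 6.22 and 6.47, with a gap of 0.09. It rose by 0.42 ± 0.11 (limma, adjusted p = 0.0387). The difference was 0.42 among first-run arrays, where it did not pass (adjusted p = 0.0636), and 0.40 among second-run arrays, which hold 1 Old CR array. The call was also lost with only the groups compared. Of the 10 fits that left out 1 array, 6 lost the call (arrays 1, 2 and 3 of Old CR, arrays 1, 2 and 4 of Old ND; adjusted p up to 0.104). Young ND arrays read 6.54, 6.85, 6.54, 6.53 and 6.53, and Old CR-ND arrays 6.42, 6.65, 6.73, 6.36 and 6.12, which overlapped both old groups. Its partners differed less: Atg5 by 0.10 ± 0.10 (adjusted p = 0.76) and Atg12 by -0.02 ± 0.10 (adjusted p = 0.96).

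Other genes were higher on average without passing the threshold. Ctsa, the protective protein cathepsin A, differed by 0.40 ± 0.17 (adjusted p = 0.253), the glycogen-degrading glucosidase gene Gaa by 0.31 ± 0.19 (adjusted p = 0.48) and the lysosomal calcium channel gene Mcoln1 by 0.30 ± 0.15 (adjusted p = 0.401). Gabarap arrays in Old CR (11.21 to 11.50) lay above each Old ND array, and the difference was 0.28 ± 0.09 (adjusted p = 0.131). Tfeb itself differed by -0.09 ± 0.08 (adjusted p = 0.671), with a 95% interval from -0.25 to 0.07. Lamp2, whose product also serves chaperone-mediated autophagy, differed by 0.06 ± 0.08 (adjusted p = 0.81).

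**Figure D3:**
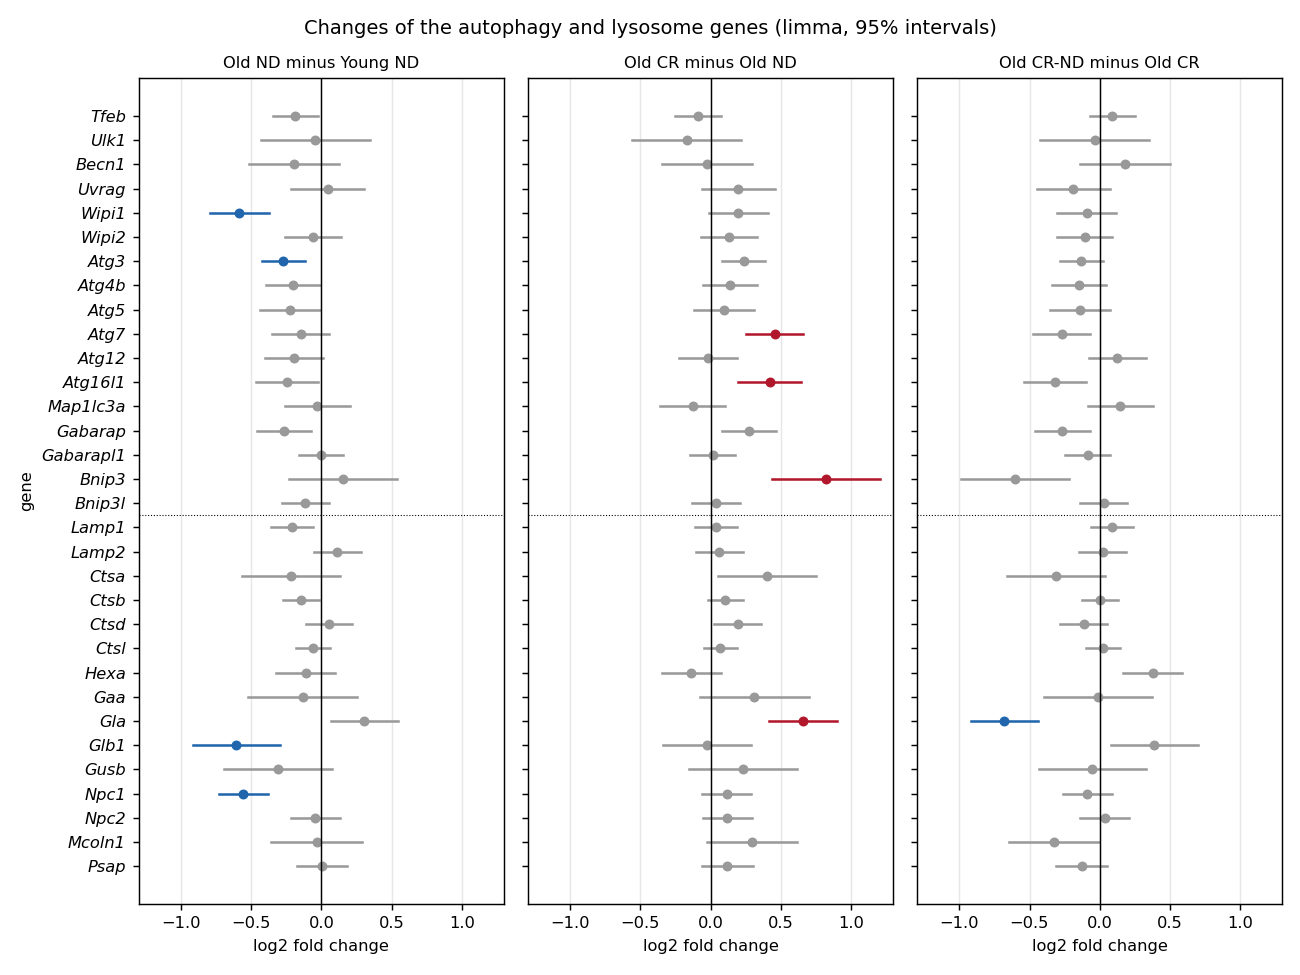
Log2 fold changes of the 32 genes with 95% intervals from limma in Old ND against Young ND (left), Old CR against Old ND (middle) and Old CR-ND against Old CR (right), autophagy genes above the dotted line. Blue marks genes that fell (4, 0 and 1) and red those that rose (0, 4 and 0), and the other intervals are grey.

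The third comparison asked how refed old mice differed from old mice still restricted. Restriction came first in Old CR-ND and last in Old CR, so the groups also differ in the age at which they were restricted. Refeeding and that age cannot be told apart here. Against Old CR, 1 of the 32 genes fell in Old CR-ND and 0 rose, where 0.333% of all genes were called and 0.211% were called lower. That gene was Gla, which fell by 0.68 ± 0.12 (limma, adjusted p = 0.00962), with no overlap and a gap of 0.43 between the groups. Its difference was -0.59 among first-run and -0.84 among second-run arrays, and the call was lost in each run alone and with the mean of the probe sets (-0.43, adjusted p = 0.23). The other genes that rose in Old CR were chosen for being high in the Old CR arrays, which are also the reference here, so lower values in Old CR-ND are no evidence of an effect of refeeding, and this holds for Gla too. They differed by -0.60 ± 0.18 for Bnip3 (adjusted p = 0.192), -0.32 ± 0.11 for Atg16l1 (adjusted p = 0.255) and -0.27 ± 0.10 for Atg7 (adjusted p = 0.309). Hexa, the alpha subunit of beta-hexosaminidase, differed the other way, by 0.38 ± 0.10 (adjusted p = 0.122), and its Old CR-ND arrays (10.69 to 10.99) lay above each Old CR array (10.30 to 10.65).

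Against Old ND, 0 of the 32 genes were called in Old CR-ND by limma, where 0.00585% of all genes were called, which is 1 gene, and 2 of the 32 had an unadjusted p under 0.05. Gla was at 7.65 ± 0.19 (SD, n = 5) in Old CR-ND and 7.67 ± 0.24 (SD, n = 5) in Old ND, a difference of -0.02 with a 95% interval from -0.26 to 0.22. The intervals were -0.17 to 0.60 for Bnip3, -0.01 to 0.39 for Atg7 and -0.12 to 0.32 for Atg16l1. The comparisons with Old CR and with Old ND share the Old CR-ND arrays, so they are not separate evidence.

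Set against Young ND, 8 of the 32 genes were called in Old CR (25%, beside 12.7% of all genes), 4 higher (beside 7.11%) and 4 lower (beside 5.56%). This comparison reuses the Young ND arrays of the first comparison and the Old CR arrays of the second. Calls that repeat those of the first or second comparison are therefore not separate evidence. Gla and Bnip3 rose by the amounts given above, Atg7 rose by 0.31 ± 0.10 (limma, adjusted p = 0.0382) and Ctsd, an aspartic protease, by 0.25 ± 0.08 (adjusted p = 0.0461). Wipi1, Glb1 and Npc1 fell as given, and Tfeb fell by 0.28 ± 0.08 (adjusted p = 0.022). Tfeb arrays read 4.64, 4.61, 4.83, 4.84 and 4.85 in Young ND and 4.56, 4.52, 4.31, 4.49 and 4.51 in Old CR, without overlap but at a level that some nonspecific controls reach. Among first-run and second-run arrays the differences were 1.00 and 0.94 for Gla, 1.07 and 0.56 for Bnip3, and -0.80 and -0.41 for Glb1. They were 0.32 and 0.20 for Atg7, 0.16 and 0.30 for Ctsd, and -0.22 and -0.34 for Tfeb. Leaving out 1 array lost the call in 8 of 10 fits for Atg7, 7 of 10 for Ctsd and 4 of 10 for Tfeb. The count fell to 5 without Old CR array 3, Young ND array 4 or Young ND array 5. In Old CR-ND, 2 of the 32 genes were called against Young ND, Wipi1 and Npc1, both lower (6.25%, beside 7.04% of all genes called and 3.82% called lower). Among second-run arrays alone neither passed, and the 1 gene called there was Gaa, higher by 0.58 (adjusted p = 0.0415).

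**Figure D4:**
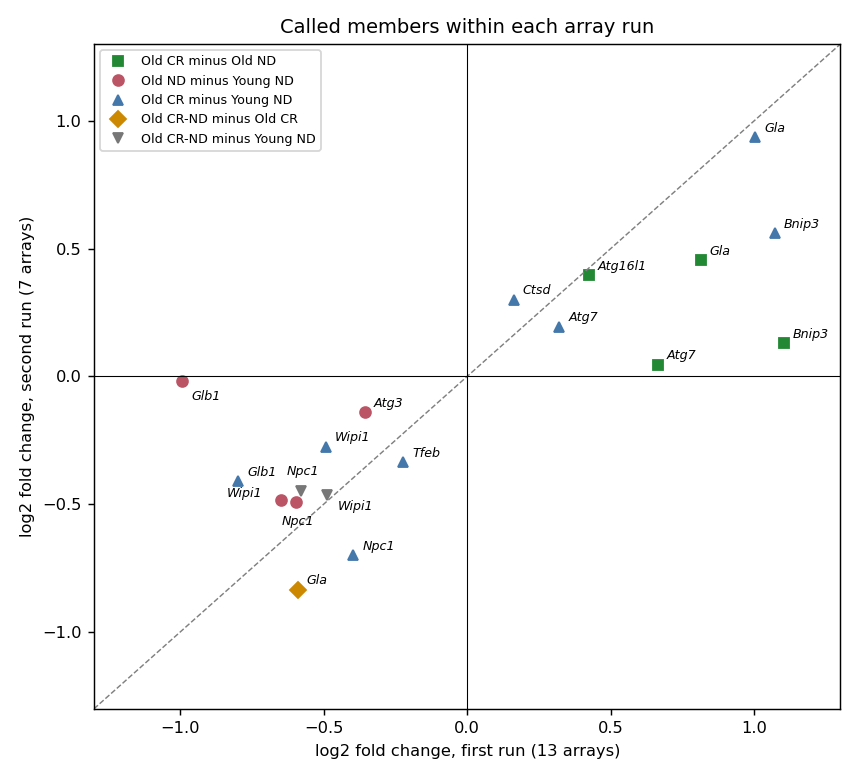
Log2 fold changes of the genes called in any comparison, within the first run of 13 arrays (horizontal) and the second run of 7 arrays (vertical), 1 point per gene and comparison, with the dashed line marking equal values. Gla, Atg16l1, Wipi1 and Npc1 lie away from 0 on both axes, while Atg7 and Bnip3 in Old CR against Old ND and Glb1 in Old ND against Young ND lie near 0 in the second run. A point away from 0 need not have passed the threshold within that run.

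Of the 32 genes, 22 were called in none of the 6 comparisons, with differences from -0.32 to 0.40. Some of them had probe sets that disagreed. For Ctsl the brighter probe set gave -0.06 ± 0.06 in Old ND against Young ND (adjusted p = 0.616 among all probe sets) and the dimmer one 0.59 ± 0.14 (adjusted p = 0.00913). For Ctsa the values were -0.22 ± 0.17 (adjusted p = 0.499) and 0.34 ± 0.11 (adjusted p = 0.0417). For Npc2 the dimmest of 3 probe sets gave 0.36 ± 0.11 (adjusted p = 0.0433), while the brighter ones gave -0.04 and -0.03. The arrays of the brighter Ctsl probe set spanned 11.75 to 11.89 in Young ND, 11.70 to 11.90 in Old ND, 11.79 to 11.96 in Old CR and 11.81 to 11.94 in Old CR-ND. Ctsa arrays were 9.75, 9.67, 9.61, 8.91 and 9.03 in Young ND and 9.36, 9.13, 9.29, 9.02 and 9.08 in Old ND, and the low Young ND arrays were those of the second run. They were 9.93, 9.62, 9.66, 9.59 and 9.09 in Old CR and 9.61, 9.41, 9.23, 9.14 and 8.94 in Old CR-ND, with the lowest array of each again from the second run. Gaa showed the same split in Young ND, at 9.36, 9.23, 9.06, 8.23 and 8.32. Map1lc3a, an LC3 protein, was the other way round in Young ND, at 10.83, 10.92, 10.90, 11.31 and 11.54. Atg4b, the protease that primes LC3 for conjugation, spanned 6.92 to 7.52 over all arrays and differed by -0.20 ± 0.09 in Old ND against Young ND (limma, adjusted p = 0.192). The beta-glucuronidase gene Gusb spanned 6.76 to 7.92 in Young ND and 6.80 to 7.41 in Old ND. Psap, which encodes the precursor of the saposins that help glycosidases reach their lipids, kept within 11.67 and 12.09 on the 20 arrays, and Gabarapl1 within 9.97 and 10.44.

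Other genes of the same pathways were counted from lists. Of the subunits of the lysosomal proton pump (V-ATPase), 14 of 17 were measured, and against Young ND the Old ND group had 7 lower and 1 higher, which is 57.1% beside 10.9% of all genes, with a median of -0.32. Atp6v0e fell by 0.59 ± 0.08 (limma, adjusted p = 2.25e-05) and Atp6v0d1 by 0.58 ± 0.08 (adjusted p = 7.89e-05), both subunits of the membrane sector, and Atp6v1a, the catalytic subunit, by 0.57 ± 0.13 (adjusted p = 0.0059). Atp6v0e2 rose by 0.41 ± 0.10 (adjusted p = 0.00729), with group means of 4.98 and 5.39 at a level that some nonspecific controls reach. The count of 8 was 4 among first-run arrays (median -0.36), 3 among second-run arrays (median -0.32), 4 with only the groups compared, and 5 without Young ND array 2, 4 or 5. Against Young ND, 4 fell and 2 rose in Old CR (42.9%, beside 12.7% of all genes called). In Old CR-ND 4 fell and 1 rose (35.7%, beside 7.04% of all genes called). These comparisons share the Young ND arrays. In Old CR against Old ND, 2 of the 14 rose (14.3%, beside 1.57% of all genes called higher), Atp6v0a1 by 0.50 ± 0.09 (adjusted p = 0.00758) and Atp6v0e2 by 0.37 ± 0.10 (adjusted p = 0.0439), and 0 fell. The Atp6v0e2 call was lost in 11 of 22 alternatives. Its Old ND mean of 5.39 lies at a level that some nonspecific controls reach. The Old CR mean of 5.76 lies little above their highest mean of 5.63. Its difference was 0.53 among first-run and 0.04 among second-run arrays. For Atp6v0a1 the differences were 0.55 and 0.28. Atp6v0a1, a form of the a subunit of the membrane sector, fell by 0.52 ± 0.09 in Old CR-ND against Old CR (adjusted p = 0.0142), a call lost in 9 of 23 alternatives and again one that shares the Old CR arrays with its rise.

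Of 34 other lysosomal enzymes, 4 passed as lower and 1 as higher when Old ND was set against Young ND, which is 14.7% beside 10.9% of all genes, with a median of -0.04. Ctsh, the aminopeptidase cathepsin H, fell by 1.74 ± 0.16 (limma, adjusted p = 3.97e-07), Man2b1, an alpha-mannosidase, by 0.47 ± 0.11 (adjusted p = 0.00758) and Aga, which cuts sugar chains from asparagine, by 0.38 ± 0.08 (adjusted p = 0.00378). Among first-run and second-run arrays the differences were -0.76 and -0.04 for Man2b1 and -0.49 and -0.22 for Aga, and neither passed in the second run. Lipa, the acid lipase, rose by 0.47 ± 0.08 (adjusted p = 0.000635). Against Young ND, Ctsh also fell by 1.62 in Old CR (adjusted p = 1.48e-06) and by 0.88 in Old CR-ND (adjusted p = 0.00161). Of 23 membrane and sorting proteins, 2 fell and 1 rose (13%, beside the same 10.9%), and the one that rose was Scarb2, the carrier of glucocerebrosidase, by 0.70 ± 0.10 (adjusted p = 9.66e-05), and the average over its probe sets differed by 0.46 (adjusted p = 0.00113). Neither list had a called gene in Old CR against Old ND, where 2.39% of all genes were called. A count of 0 in lists of this size is near that share.

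Of 27 other autophagy machinery genes, 2 were called lower and 0 higher when Old ND was set against Young ND (7.41%, beside 10.9% of all genes), both SNARE genes of membrane fusion, Ykt6 by 0.71 ± 0.12 (limma, adjusted p = 0.00033) and Vamp8 by 0.35 ± 0.09 (adjusted p = 0.00903). Vamp8 differed by -0.25 among first-run arrays, where it did not pass, and by -0.50 among second-run arrays. Of 13 other receptors, only Tex264, a receptor for endoplasmic reticulum, passed (7.69%), and it fell by 0.73 ± 0.09 (adjusted p = 1.56e-05). Of 22 regulators, 3 fell and 1 rose (18.2%). Lamtor2 fell by 0.53 ± 0.10 (adjusted p = 0.00174) and Lamtor3 by 0.52 ± 0.11 (adjusted p = 0.00443), both of the scaffold that holds mTORC1 on the lysosome, and the mean of the Lamtor2 probe sets differed by -0.25 (adjusted p = 0.00225). Flcn, which acts in the same nutrient pathway, fell by 0.40 ± 0.11 (adjusted p = 0.0189), a call lost in 7 of 23 alternatives. Mitf, a transcription factor of the TFEB family, rose by 0.63 ± 0.20 (adjusted p = 0.0489), a call lost in 15 of 23 alternatives, and stood 1.25 ± 0.20 above Young ND in Old CR (adjusted p = 0.000228), and 0.73 above it when its probe sets were averaged (adjusted p = 0.00419). In Old CR against Old ND, Tmem41b, a lipid scramblase of autophagosome formation, rose by 0.45 ± 0.11 (limma, adjusted p = 0.027) and Snap29, a fusion SNARE, by 0.43 ± 0.10 (adjusted p = 0.0312). They are 7.41% of the machinery beside 1.57% of all genes called higher. Of the receptors and regulators 0 passed, which in lists of this size is near the 2.39% of all genes called. The calls were lost in 9 of 23 alternatives for Tmem41b and 10 of 23 for Snap29, each run alone among them, and the mean of the Snap29 probe sets differed by 0.27 (adjusted p = 0.0482).

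**Figure D5:**
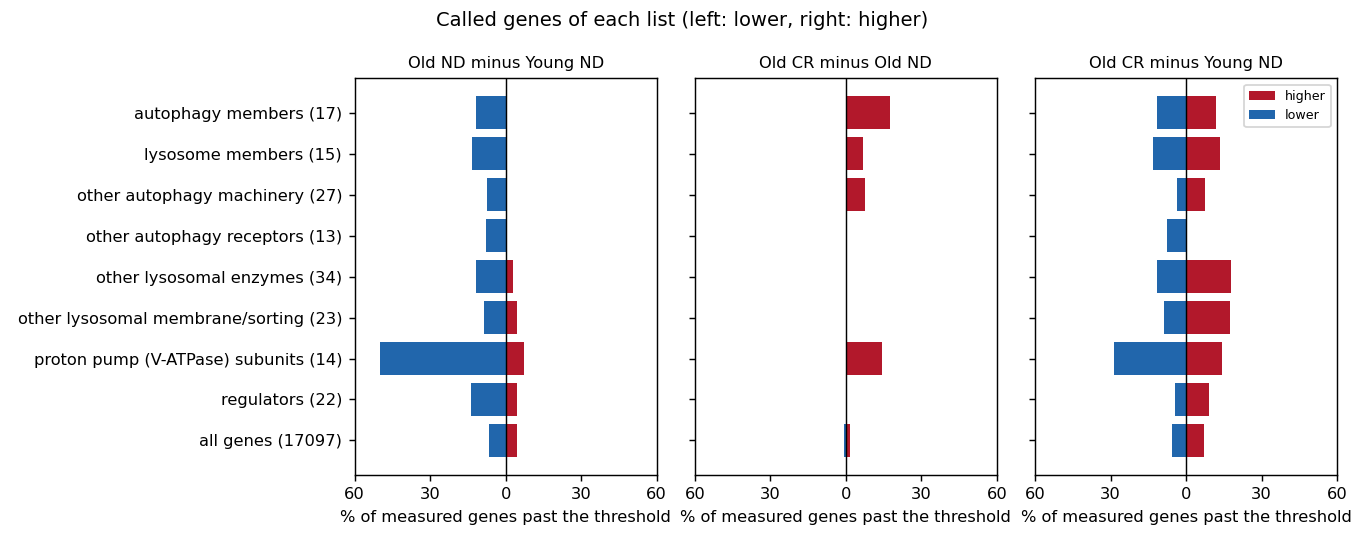
Share of the measured genes of each list that passed the threshold, lower to the left of 0 and higher to the right, in 3 comparisons, with the number measured in brackets. In Old ND against Young ND the proton pump subunits have the longest bar, 7 of 14 lower. In Old CR against Old ND no list has a called gene on the left, where 140 of all 17097 genes were called lower. A count of 0 in lists of this size is near that share.

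Markers of other cell types bear on these genes, because macrophages are rich in lysosomes. The summed level of 12 myeloid markers, on the log2 scale, ranged over 8.88 to 9.19 in Young ND, 8.90 to 9.40 in Old ND, 8.87 to 9.29 in Old CR and 8.96 to 9.35 in Old CR-ND. The pan-leukocyte gene Ptprc, which encodes CD45, averaged 3.25 and the macrophage gene Adgre1 3.69, near the nonspecific median of 3.45. They were the dimmest of the 12, and the others averaged from 3.74 for Itgam to 7.44 for Cd68. Only Cd68, Csf1r (6.90) and Fcer1g (5.91) lay above the highest nonspecific control mean of 5.63. Of the 12 markers, Csf1r alone passed in Old ND against Young ND, at -1.20 ± 0.10 (limma, adjusted p = 1.41e-07). In Old CR against Old ND and in Old CR-ND against Old CR 0 passed, where 2.39% and 0.333% of all genes were called. Cd68, itself a lysosomal membrane protein, differed by 0.94 ± 0.32 in Old ND against Young ND (adjusted p = 0.068). The summed level of 8 keratinocyte markers spread most in Old ND, from 9.32 to 11.97. Of the 8, 0 passed in any comparison, where 12.7% of all genes or fewer were called. A count of 0 in a list of this size is near such shares. Krt5 averaged 8.90 and Epcam 5.08. Dsp ranged from 5.08 to 9.91 within Old ND, so the level of a keratinocyte marker could differ widely between arrays of 1 group. Csf1r also fell by 0.97 in Old CR and by 0.92 in Old CR-ND against Young ND, and Cd68 rose by 1.03 in Old CR (adjusted p = 0.039). The summed level of 8 fibroblast markers did not overlap between Young ND (14.75 to 14.86) and the Old ND (14.53 to 14.70) or Old CR (14.56 to 14.72) arrays, and spanned 14.56 to 14.80 in Old CR-ND. All these sums add unlogged levels, so the brightest markers weigh most. Col1a1, a collagen chain gene, fell by 0.48 in Old ND, by 0.50 in Old CR and by 0.41 in Old CR-ND against Young ND, and Thy1 fell by 0.37 in Old CR. Col1a1 arrays spanned 13.31 to 13.37 in Young ND and 12.61 to 13.03 in Old ND. The other bright marker, Dcn, spanned 13.13 to 13.26 and 13.15 to 13.30. Of the fibroblast markers, all but Col1a1 overlapped between Young ND and Old ND, so the gap in the sum is not a fall of the whole list. Of 6 endothelial markers only Tek passed, higher by 1.02 in Old ND, 1.63 in Old CR and 1.43 in Old CR-ND against Young ND, while their summed level overlapped between all groups. Of 4 markers of pericytes and smooth muscle, Des fell by 0.35 in Old ND. Of these fibroblast, endothelial and pericyte markers 0 passed in the comparisons among the old groups, where 2.39% of all genes or fewer were called. Cd34, a marker of the sort, averaged 11.18 and fell by 0.30 ± 0.09 in Old ND against Young ND (adjusted p = 0.0303), and Pdgfra averaged 5.97 and differed by 0.49 ± 0.17 (adjusted p = 0.0699). The part of these markers in the results was not tested.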

How the data were processed

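RNA of sorted dermal fibroblasts was measured on 20 Affymetrix mouse arrays. The values deposited for each probe set are on the log2 scale. RMA and the affy package are named in the submitters' processing notes, and versions are not given in the sources used here. RMA by default sets the arrays to 1 common distribution, and where that was done a change shared by most genes would not show. Of 45141 probe sets, 28898 name 1 gene, 551 several and 15692 none. Symbols were updated through Entrez numbers against RefSeq (28689 matched), and the brightest probe set was kept for each of 17097 genes, with no filter on dim genes.

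A linear model with the 4 group means was fitted to the 20 arrays (lmFit and eBayes, limma 3.58.1, R 4.3.3), with 16 residual and 4.19 prior degrees of freedom. Tests were two-sided, with Benjamini-Hochberg adjustment over all genes and a threshold of 0.05. The pipeline was tested on simulated data. P-values measure the spread between mice as the labels describe them. Replicate numbers follow the order of deposit and pair nothing.

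The genes and lists were chosen with earlier results of these data known. All 35 genes are named, and of each other list the genes past the threshold, at most the 4 with the lowest adjusted p in a comparison. Values per array are given for genes past the threshold in the comparisons of Old ND with Young ND and among the old groups, and for Ctsa, whose probe sets disagree. Tfeb, Gaa and Map1lc3a were added to these after their values were seen. Alternatives were each array left out, other thresholds, the groups compared alone, array weights, a trended robust eBayes, median-centred arrays, a further quantile normalization, probe set means, filters on dim genes, and the array run as a block or alone. The tests of the runs and the alternatives for the other lists were added after seeing the data.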

Additional observations from a re-analysis of the deposited data

Results flagged for a closer look

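Within each group of 5 arrays, an array was singled out where its gap to the nearest other array exceeded 0.71 of the range of the group. Of 128 gene and group pairs, 8 were singled out, and chance gives about 1 in 20. Below the others lay Tfeb in Old CR array 3 at 4.31 (others 4.49 to 4.56), Wipi2 in Old CR-ND array 5 at 8.24 (others 8.49 to 8.58), Gabarap in Old ND array 5 at 10.91 (others 11.11 to 11.16), Lamp2 in Young ND array 2 at 9.93 (0.07 below the next array) and Psap in Old CR array 5 at 11.80 (others 12.01 to 12.09). Above the others lay Atg7 in Young ND array 3 at 7.84 (others 7.56 to 7.63), Atg16l1 in Young ND array 2 at 6.85 (others 6.53 to 6.54) and Gusb in Old CR-ND array 1 at 7.44 (others 7.11 to 7.16). The low values of Wipi2, Gabarap and Psap came from arrays of the second run.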

How the results depend on the processing

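Of 19 called differences, re-estimated 435 times in all, 360 values kept the direction and the threshold, 75 lost the threshold and 0 turned direction. The count for Old ND against Young ND, 4, was 7 in the first run, 2 in the second and 7 with the mean of the probe sets. It was 2 with only the groups compared, 2 at a threshold of 0.01 and 7 at 0.10. Not all of these genes were lower. Ctsl was called higher with the mean of the probe sets (0.27), and Gla at the threshold of 0.10 (0.31). For Old CR against Old ND, 4 became 2 with only the groups compared and 1 at a threshold of 0.01, and 1 to 5 with an array left out. For Old CR-ND against Old CR, 1 became 0 in the first run and with the mean of the probe sets, and 2 with array weights. For Old CR against Young ND, 8 became 4 at a threshold of 0.01 and 5 to 8 with an array left out. For Old CR-ND against Young ND, 2 became 1 in the second run, where both Wipi1 and Npc1 were lost and Gaa was gained. For any difference among the groups, 9 became 4 at a threshold of 0.01 and 5 to 8 with an array left out, with 5 reached without Old CR array 2. The second run holds 7 arrays and 1 of Old CR, whose spread was taken from the other groups, so its counts are left out where Old CR takes part. The share of all genes called under each alternative is not given here, so these counts do not set the genes apart from other genes. The causes were not tested. Old CR-ND against Old ND gave 0 genes in every alternative run. No paired analysis was possible because the labels give no replicate numbers shared between groups. Probe sets near the nonspecific controls, such as that of Tfeb, limit what a small change can show.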
